A study of Mus musculus with 6 samples.

Results

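Oxidative phosphorylation genes were described in intestinal crypt stem cells that had gone through hypoxia/reoxygenation (H/R), with and without overexpression of the circular RNA circEZH2_005. Members were the protein-coding genes whose symbols name a subunit, an isoform or an assembly factor of the respiratory complexes (mt-, Nduf, Sdha to Sdhd, Uqcr, Cox4 to Cox8 and Atp5). The rule used names alone and no measured value, but was chosen with earlier results of these data known. It found 104 of the 28752 genes listed, 13 encoded by mitochondrial DNA and 91 by nuclear DNA. The nuclear members comprised 76 subunit genes (36 of complex I, 4 of complex II, 8 of complex III, 11 of complex IV and 17 of complex V), 8 Ndufaf assembly factors of complex I, and 7 other members. The others were the restricted isoforms Cox7a1, Cox6a2, Cox6b2 and Cox8b, the supercomplex gene Cox7a2l, and Cox5b-ps and Ndufb1-ps. Both -ps genes carry the suffix of pseudogenes but are listed as protein-coding, and neither was counted among the subunits. Ndufa4 was placed with complex IV, of which it is a subunit despite its name.

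RNA-seq had been run on 6 samples, 3 of the group vector (genotype label WT) and 3 of the group circEZH2_005 (label circEZH2_005 overexpression). The titles of all 6 call them intestinal crypt stem cells. By the paper's methods, Lgr5+ intestinal stem cells (ISCs) were taken from Lgr5-GFP mice and grown into crypt-villus organoids, which also hold differentiated epithelium. The paper calls the sequenced material intestinal crypt cells and does not say whether it was organoids. The labels describe infection by an adenovirus carrying the circular RNA for 72 h, and then an atmosphere of 2% O2, 5% CO2 and 93% N2 for 4 h, without giving the length of reoxygenation or the animals' age. Every sample was under H/R, so there was no normoxic group. The labels do not say whether samples came from separate cultures or animals, and the p-values measure only the spread between these samples, which may be technical. No value is given for circEZH2_005 itself, since counts are per gene and a gene's row does not single out a circular RNA.

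The respiratory chain in the inner mitochondrial membrane passes electrons from NADH (complex I) and succinate (complex II) through complex III to oxygen at complex IV, and complex V uses the proton gradient so built to make ATP. Complex II is encoded by nuclear genes alone, while the other complexes join subunits from both genomes. In the intestinal crypt, Lgr5+ stem cells are known for high mitochondrial activity, and oxygen is the substrate that hypoxia withdraws and reoxygenation returns.

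Totals ran from 71506487 to 79919893 counts per sample. The crypt marker Olfm4 lay between 1003 and 2314 CPM (read counts scaled to a common library total with TMM factors) in the 6 samples, and of 10 crypt stem cell markers 2, Lgr5 and Smoc2, were lower in circEZH2_005 (edgeR adjusted p = 0.0434 and 0.0203). The 16 leukocyte markers summed to 103.5, 288.0 and 130.6 CPM in vector and to 664.6, 517.9 and 387.8 CPM in circEZH2_005; all 16 had a log2 fold change above 0, 1 passed the test, and 9 did not overlap between the groups. By this sum vector 2 was the vector library nearest to circEZH2_005. The description of the cells names no leukocytes, and the source of these counts was not tested. The 10 enterocyte markers summed to between 16000 and 18600 CPM in vector and to between 16700 and 32300 CPM in circEZH2_005, with 1 passing the test as higher. In bulk samples, fewer cells of a type and less RNA per cell cannot be told apart.

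Among the 104 members, 1 gene was higher in circEZH2_005 and 0 were lower at an adjusted p under 0.05 (edgeR quasi-likelihood test over 18348 genes; all 104 members were tested). That gene was Cox7a1, an isoform of complex IV subunit VIIa known from heart and skeletal muscle. Over all genes tested, 2.69% were higher and 0.986% lower by the same rule. At an unadjusted p under 0.05, 14 members (13.5%) were lower, against 9.72% of all genes and 13.81% of the 5865 genes no less abundant than the lowest nuclear subunit gene, and 3 (2.88%) were higher, against 14.0%. DESeq2 called 2 members higher and 3 lower, and limma on log2(FPKM + 1) called 1 higher and 2 lower.

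Most members lay slightly below 0. A log2 fold change (circEZH2_005 over vector) under 0 was found in 81 of the 104 (77.9%), compared with 50% of all genes tested and with 48.71% of the 5865 abundant genes (a mean of 4.932 log2 CPM or more). The median was -0.08, against 0.00 over all genes. In 21 members (20.2%) all 3 circEZH2_005 samples lay below all 3 vector samples, which was the case for 14.2% of all genes. In 4 members (3.85%) they lay above, against 16.4% of all genes. The shift was small beside the precision of a single gene, whose 95% confidence interval extended by a median of 0.22 to either side on the log2 scale.

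**Figure D1:**
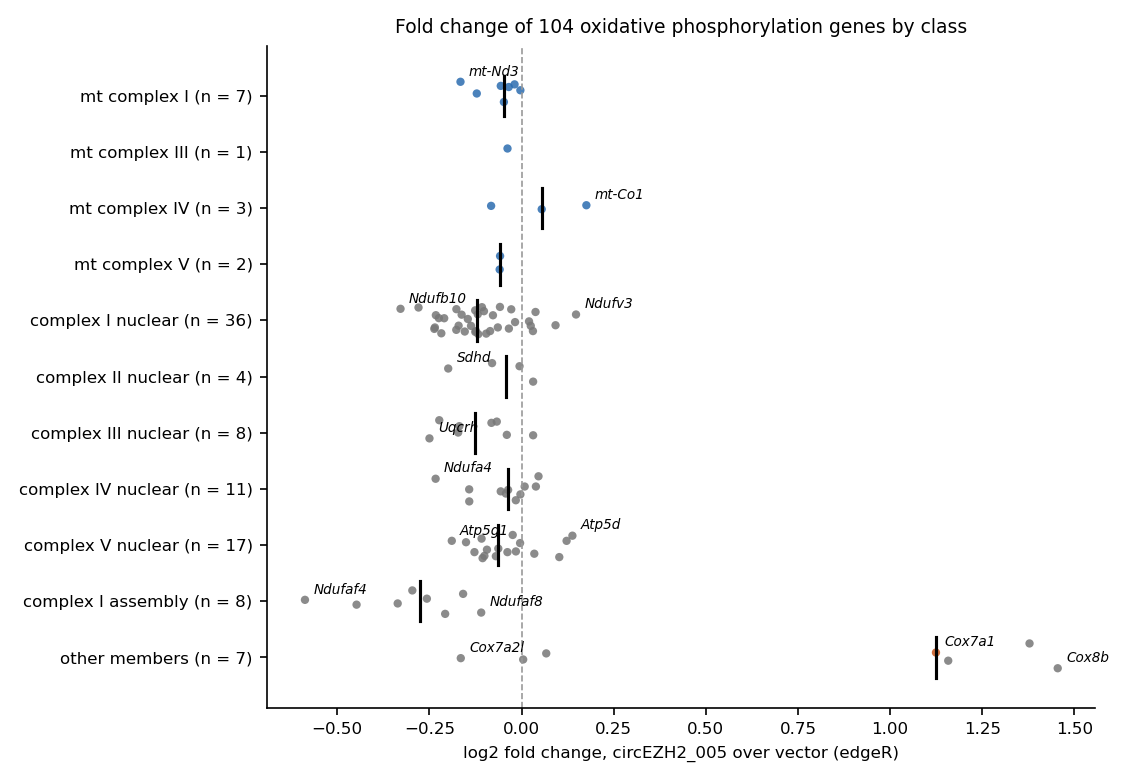
Log2 fold change of each of the 104 members (points) by class, circEZH2_005 over vector, from the edgeR fit, with the class median as a black bar, mitochondrial genes in blue, nuclear genes in grey and the member with an adjusted p under 0.05 in orange. The subunit classes sit between -0.33 and 0.18, the assembly factors of complex I reach -0.59, and Cox7a1, Cox6b2, Cox6a2 and Cox8b stand at 1.12 to 1.45.

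Among the nuclear subunits, the medians of complexes I to V were -0.12, -0.04, -0.13, -0.04 and -0.06, and 30 of 36, 3 of 4, 7 of 8, 8 of 11 and 13 of 17 genes fell under 0 respectively. Mean log2 CPM over the subunits of a complex was compared sample by sample, without a test. For complex I it was 6.34, 6.33 and 6.20 in vector and 6.11, 6.21 and 6.22 in circEZH2_005. For complex III it was 7.67, 7.66 and 7.55 in vector and 7.41, 7.54 and 7.56 in circEZH2_005. In each of complexes I to V the 2 groups overlapped, and in each the lowest sample was circEZH2_005 1.

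Much of the shift lay in 1 library. Sample circEZH2_005 1 held the lowest CPM of the 6 samples in 56 of the 76 nuclear subunit genes (73.7%) and in 10 of the 13 mitochondrial genes (76.9%), but in 16.7% of all genes tested. It was also the library with the largest sum of leukocyte markers, whose part in the result was not tested. Without it, 64 members rather than 81 had a log2 fold change under 0, and the medians of nuclear complexes II and IV were 0.02 and 0.03, whereas those of complex I (-0.08), complex III (-0.09) and the Ndufaf assembly factors (-0.37) stayed below 0. Without vector 2, 75 members lay under 0, and the number lower at an unadjusted p under 0.05 fell to 5. It was 4 without vector 1 and 7 without circEZH2_005 1. The share of all genes at that threshold is not given for these fits.

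Complex I, the NADH dehydrogenase and entry point of most electrons, had the subunit genes with the lowest values. Ndufb10 and Ndufb11 encode accessory subunits of its membrane arm. Ndufb10 stood at 121.7, 122.4 and 109.3 CPM in vector and at 85.7, 95.4 and 100.3 CPM in circEZH2_005. The groups did not overlap, with a log2 fold change of -0.33 (SE 0.09) and an edgeR adjusted p of 0.0838, while DESeq2 gave 0.0352 and limma 0.0420. Ndufb11 measured 82.1, 81.8 and 76.2 CPM against 62.1, 64.3 and 71.4 CPM, again without overlap (log2 fold change -0.28, SE 0.08, edgeR adjusted p = 0.0980). In all, 10 of the 36 complex I subunits had every circEZH2_005 sample below every vector sample and 0 had it above, against 14.2% and 16.4% of all genes. An unadjusted p under 0.05 with a value under 0 was found in 7, against 9.72% of all genes and 13.81% of the abundant ones. At the other end, Ndufv3, an accessory subunit of the NADH-binding module, had a log2 fold change of 0.15 (SE 0.11, edgeR adjusted p = 0.454) with overlapping groups.

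The 8 Ndufaf assembly factors, which help build complex I and are not part of the finished enzyme, were the class with the lowest median, -0.28, and all 8 had a log2 fold change under 0. Ndufaf4, an early assembly factor, measured 53.1, 66.9 and 54.7 CPM in vector and 42.3, 31.8 and 42.1 CPM in circEZH2_005. Its log2 fold change was -0.59 (SE 0.14), equal to a ratio of 0.665 with a 95% confidence interval of 0.530 to 0.835, and its edgeR adjusted p was 0.0607 (DESeq2 0.00409). Ndufaf1, which acts in the assembly of the membrane arm, measured 23.3, 27.0 and 26.3 CPM against 18.3, 15.7 and 22.1 CPM (log2 fold change -0.45, SE 0.14, edgeR adjusted p = 0.109, DESeq2 0.0462). Ndufaf5, a methyltransferase-like factor that modifies the core subunit Ndufs7, measured 14.8, 15.2 and 12.4 CPM against 12.4, 10.5 and 10.7 CPM (log2 fold change -0.34, SE 0.13, edgeR adjusted p = 0.183). These 3 genes did not overlap between the groups, with circEZH2_005 below as in 14.2% of all genes, and the remaining 5 did. Ndufaf8 had the value nearest to 0 (-0.11, edgeR adjusted p = 0.669). In all 8 genes vector 2 held the highest and circEZH2_005 2 the lowest CPM of the 6 samples. Vector 2 was the highest sample in 17.2% of all genes tested and circEZH2_005 2 the lowest in 22.6%. The sum of the 10 crypt stem cell markers was likewise highest in vector 2 and lowest in circEZH2_005 2. It stood at 2141, 3017 and 2286 CPM in vector and at 1978, 1477 and 2139 CPM in circEZH2_005. Most of it was Olfm4, at 1447, 2314 and 1510 CPM in vector and 1382, 1003 and 1565 CPM in circEZH2_005. Among the vector samples, Ascl2, Axin2, Rnf43 and Cdca7 were also highest in vector 2. Lgr5, Smoc2, Slc12a2 and Znrf3 were lowest there, and Sox9 lay between. Over all 6 samples, Olfm4, Ascl2 and Cdca7 were highest in vector 2 and lowest in circEZH2_005 2. Axin2 and Rnf43 were instead highest in circEZH2_005 1 and lowest in vector 1. Smoc2, Slc12a2, Znrf3 and Sox9 were lowest in circEZH2_005 2 without being highest in vector 2, and Lgr5 was lowest in circEZH2_005 3. The sum of the 10 enterocyte markers was highest in circEZH2_005 2. The part of these markers in the result was not tested. The mean log2 CPM of the 8 was 4.18, 4.35 and 4.07 in vector and 4.02, 3.71 and 3.95 in circEZH2_005, so that the highest circEZH2_005 sample lay just below the lowest vector sample. The class median was -0.17 without vector 2 and -0.18 without circEZH2_005 2.

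**Figure D2:**
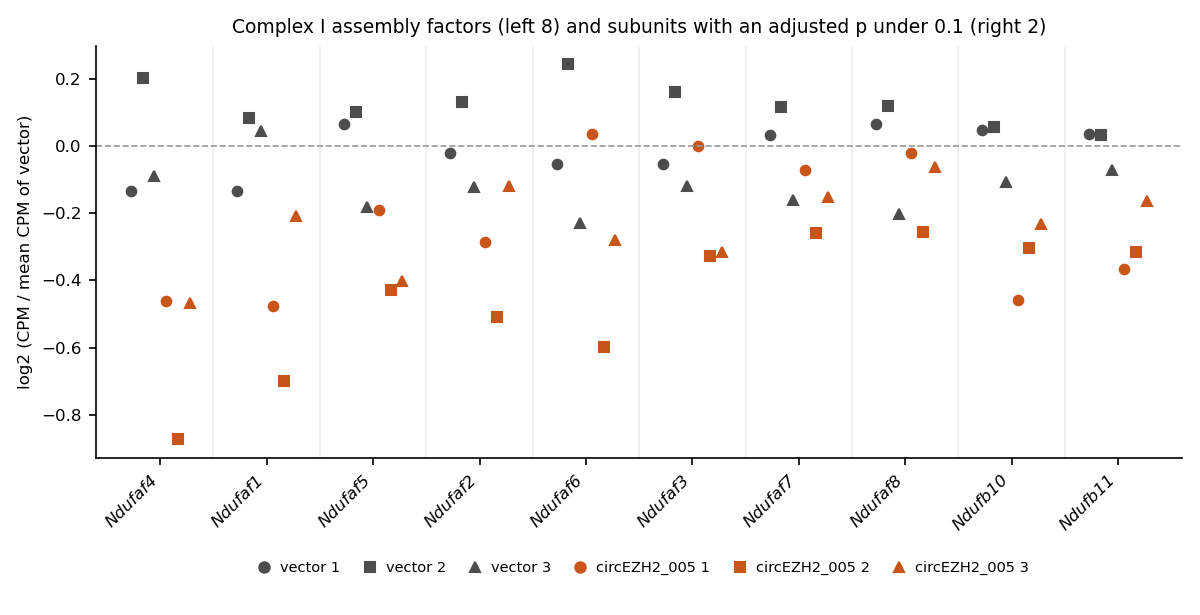
CPM of each sample relative to the vector mean (log2 axis) for the 8 Ndufaf genes and the 2 complex I subunit genes with an adjusted p under 0.1, vector in grey and circEZH2_005 in orange, with replicates by marker shape. Circles (replicate 1) are lowest among the orange points of Ndufb10, and squares (replicate 2) are lowest in all 8 Ndufaf genes.

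Promoter windows of nuclear members were read from RefSeq (GRCm38.p6; 250 bases before to 50 bases after the start, 300 in all), with 80 windows for 75 of the 91 nuclear genes. Respiratory genes are classic holders of the motifs of NRF1, GABPA and YY1, factors known to act on them. GCGCANGCG (NRF1) was found on either strand in 23 of the 80 windows (28.7%), compared with 6.25% of all 32851 windows. CCGGAAG (GABPA) was in 23.8% against 8.86%, and AAGATGGCG (YY1) in 10.0% against 1.40%. The windows of Ndufaf4 (chr4:24897833-24898132, plus strand), the assembly factor with the lowest value, and of Cox7a1 (chr7:30183921-30184220, plus strand), the gene that passed the test, are shown because they differ in this feature. Capitals mark the NRF1 letters, which read the same on both strands of the Ndufaf4 window and give 2 overlapping matches. In the Cox7a1 window 0 letters match any of the 3 motifs, which says only that these letters are not in it. The windows of Ndufaf2, Ndufaf3, Ndufaf7 and Ndufb11, genes with a log2 fold change under 0, also held 0 matches. The pair therefore does not stand for the other members, and a link between motifs and fold change was not tested.
Ndufaf4: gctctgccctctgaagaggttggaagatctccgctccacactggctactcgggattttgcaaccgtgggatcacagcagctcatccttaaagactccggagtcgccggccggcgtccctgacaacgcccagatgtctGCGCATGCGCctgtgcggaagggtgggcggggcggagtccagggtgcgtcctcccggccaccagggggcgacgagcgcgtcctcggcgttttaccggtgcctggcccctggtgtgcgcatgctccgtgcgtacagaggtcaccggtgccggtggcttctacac
Cox7a1: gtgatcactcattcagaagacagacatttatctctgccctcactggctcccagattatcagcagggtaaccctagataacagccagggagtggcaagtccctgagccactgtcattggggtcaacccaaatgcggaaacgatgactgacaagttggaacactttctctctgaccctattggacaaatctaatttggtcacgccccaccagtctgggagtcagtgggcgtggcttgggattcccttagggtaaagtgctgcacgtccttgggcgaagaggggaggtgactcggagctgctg

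Cox7a1 (ENSMUSG00000074218, mm10 chr7:30184144-30186078, plus strand) had counts of 1194, 1266 and 937 in vector and of 2006, 3081 and 2319 in circEZH2_005. Scaled, these were 16.5, 16.9 and 12.0 CPM against 25.2, 41.4 and 32.4 CPM, so every circEZH2_005 sample exceeded every vector sample. The fitted ratio was 2.18 (95% confidence interval 1.56 to 3.04), a log2 fold change of 1.12 (SE 0.21) with an edgeR adjusted p of 0.0367. A two-sided exact permutation test of CPM over the 6 samples gave p = 0.1, the smallest value that 3 against 3 samples allow. Its log2 fold change was 0.93 to 1.28 over 13 alternative fits. The call held in 7 of these 13. Among the others were the fits without the filter on low counts (adjusted p = 0.0745) and without circEZH2_005 2 (adjusted p = 0.119), circEZH2_005 3 (0.0825), vector 1 (0.128) or vector 3 (0.138). No 50-base stretch of its transcripts occurred in another annotated gene (0.0%).

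Its counterpart Cox7a2, the widely expressed isoform of the same subunit, measured 167.6, 159.7 and 145.2 CPM against 128.1, 157.1 and 142.9 CPM (log2 fold change -0.14, SE 0.10, edgeR adjusted p = 0.453), with overlapping groups. Per length, Cox7a1 made up 14.8%, 15.8% and 12.7% of the summed FPKM of both isoforms in vector and 25.8%, 31.7% and 28.5% in circEZH2_005. The shares did not overlap, and Cox7a2 was the larger part in each sample. By FPKM as deposited, Cox7a2 itself was at 161.8, 158.5 and 142.6 in vector and at 126.5, 138.8 and 128.4 in circEZH2_005, so the overlap seen in CPM was absent on that scale. Cox7a2l, which encodes a relative that joins complexes III and IV into supercomplexes, had a log2 fold change of -0.16 (SE 0.09, edgeR adjusted p = 0.337).

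The other restricted isoforms of complex IV were present at low levels. Cox6b2, the isoform known from testis, had 67, 128 and 117 counts in vector and 218, 296 and 180 in circEZH2_005, without overlap (log2 fold change 1.16, SE 0.31, edgeR adjusted p = 0.0764, DESeq2 0.0103). Its share of the FPKM of the Cox6b pair was 0.248%, 0.447% and 0.451% in vector and 0.868%, 1.06% and 0.682% in circEZH2_005. Cox6a2, an isoform of heart and skeletal muscle, had 18, 26 and 14 counts against 61, 57 and 35 (log2 fold change 1.38, SE 0.45, edgeR adjusted p = 0.118). Its 3′ end on the minus strand of chromosome 7 overlaps the 3′ end of the leukocyte integrin gene Itgad on the plus strand, which rose from 0.953, 2.80 and 0.932 to 9.01, 7.32 and 6.13 CPM (edgeR adjusted p = 0.0426). Whether reads were counted by strand is not stated, so reads of these 2 genes cannot be told apart where they overlap. Cox8b, a further muscle isoform, had 0, 0 and 11 counts in vector and 11, 6 and 13 in circEZH2_005; the groups overlapped and its edgeR adjusted p was 0.562.

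The widely expressed partners of these isoforms had values near 0. Cox6b1 had a log2 fold change of -0.04 (95% confidence interval -0.27 to 0.19), Cox6a1 of 0.05 (-0.21 to 0.30) and Cox8a of -0.02 (-0.25 to 0.22). Cox4i1, the large nuclear subunit of complex IV, had a value of 0.04 (-0.19 to 0.27). All 4 overlapped between the groups, and the directions of Cox6a1 and Cox4i1 turned below 0 in the limma fits on FPKM (-0.05 each). The markers of fibroblasts and muscle, 10 genes, summed to between 5.58 and 8.63 CPM in vector and to between 3.85 and 13.3 CPM in circEZH2_005, with 6 of the 10 above 0 in log2 fold change and 0 past the test. The smooth muscle gene Myh11 was at 0 in vector 2 and no higher than 0.434 CPM elsewhere. Tagln, a further smooth muscle gene, was at 0.193, 0.308 and 0.613 CPM in vector and at 1.55, 1.22 and 0.907 CPM in circEZH2_005, without overlap (edgeR adjusted p = 0.0858), and the muscle filament gene Des overlapped (log2 fold change 1.73, edgeR adjusted p = 0.373). Cox7a1 and the sum of leukocyte markers were higher in each circEZH2_005 sample than in every vector sample. The leukocyte sum was largest in circEZH2_005 1, where Cox7a1 was lowest among the circEZH2_005 samples. The sum of enterocyte markers exceeded every vector sample in circEZH2_005 2 and 3, but at 16690 CPM in circEZH2_005 1 it lay within the vector range. By single genes, 6 of the 10 enterocyte markers were higher in each circEZH2_005 sample than in every vector sample, against 16.4% of all genes. A log2 fold change above 0 was found in 8 of the 10, and Sis, at a mean of 4343 CPM in vector and 3554 CPM in circEZH2_005, lay under 0. The part of all these markers in the result was not tested.

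**Figure D3:**
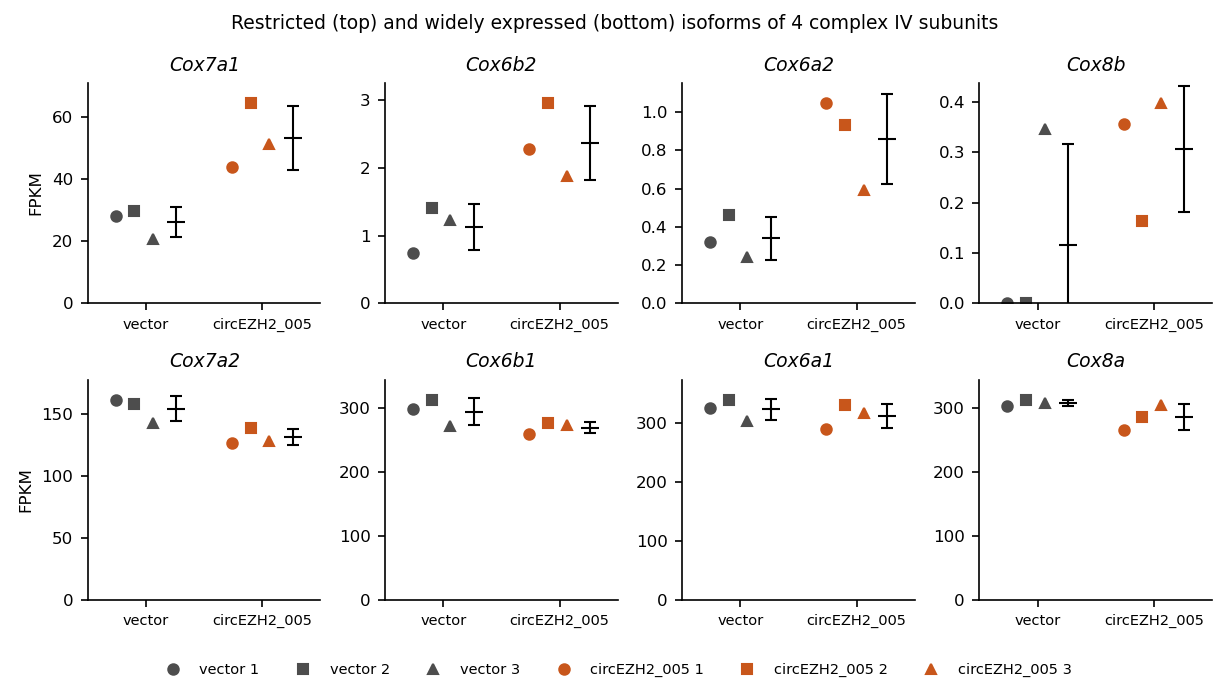
FPKM (linear axes from 0, a separate scale in each panel) of 4 restricted isoforms of complex IV (top) and of their widely expressed partners (bottom) in each sample, with mean and SD beside the points (n = 3 per group). The circEZH2_005 points lie above all vector points for Cox7a1, Cox6b2 and Cox6a2, which reach 64.5, 2.96 and 1.05 FPKM, and in no partner gene do they all lie above.

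In the remaining nuclear classes 0 genes passed the test. Of complex II, Sdhd, a membrane anchor of succinate dehydrogenase, measured 393.5, 404.8 and 385.3 CPM against 317.1, 355.6 and 358.4 CPM (log2 fold change -0.20, SE 0.08, edgeR adjusted p = 0.208), while Sdhc, the other anchor, had a log2 fold change of 0.03 (SE 0.08). The catalytic flavoprotein subunit Sdha was near 0 (-0.01, 95% confidence interval -0.20 to 0.19). Of complex III, Uqcrh, the hinge protein, had the lowest value at -0.25 (SE 0.11, edgeR adjusted p = 0.213) with overlapping groups, and the iron-sulphur protein Uqcrfs1 the highest at 0.03. Uqcrb, another subunit of complex III, measured 173.0, 168.4 and 148.8 CPM against 131.2, 144.9 and 143.9 CPM, without overlap (log2 fold change -0.22, SE 0.09, edgeR adjusted p = 0.187). Of complex IV, Ndufa4 measured 208.9, 220.4 and 198.1 CPM against 170.2, 179.9 and 183.6 CPM (log2 fold change -0.23, SE 0.08, edgeR adjusted p = 0.134), without overlap. Of complex V, Atp5g1, which encodes the c subunit of the rotor, was lowest at -0.19 (SE 0.08, edgeR adjusted p = 0.204) and Atp5d, the delta subunit of the F1 part, highest at 0.14 (SE 0.09, edgeR adjusted p = 0.427). The catalytic subunits Atp5a1 and Atp5b had log2 fold changes of -0.02 and 0.03.

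In FPKM as deposited, a level per length, the 13 mitochondrial genes were above the nuclear ones. They ranged from 1021 FPKM (mt-Nd3) to 16910 FPKM (mt-Co1), and the highest nuclear members were Atp5a1 at 534 and Atp5b at 502 FPKM (means over 6 samples). For 24 of 103 members the length implied by FPKM was over 2 times that of the longest coding transcript, up to 11.8 times for Atp5l, so FPKM understates those nuclear genes, whereas 0 mitochondrial genes were over 1.1 times. For Atp5b it was 2.21 times, so its order against mt-Nd3 cannot be set. Of the 13 genes, 11 had a log2 fold change under 0, 0 had an unadjusted p under 0.05, and the median was -0.05. The lowest adjusted p was 0.303.

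The gene with that value was mt-Co1, the catalytic subunit of complex IV and the most abundant member. It measured 26950, 27850 and 27280 CPM in vector and 30780, 31750 and 30190 CPM in circEZH2_005, without overlap, a log2 fold change of 0.18 (SE 0.09). mt-Co3, a further core subunit of the same complex, lay on the other side of 0, with 4692, 4712 and 4541 CPM against 4319, 4460 and 4391 CPM (log2 fold change -0.08, SE 0.08, edgeR adjusted p = 0.611), also without overlap. The ratio of mt-Co1 to mt-Co3 counts, which is independent of the scaling between libraries, was 5.74, 5.91 and 6.01 in vector and 7.13, 7.12 and 6.88 in circEZH2_005. The ratio of mt-Co1 to mt-Nd1, a core membrane subunit of complex I, was 3.75, 4.38 and 3.94 against 5.12, 5.04 and 4.62. Against mt-Nd6, encoded on the opposite strand, the ratio was 16.8, 19.1 and 18.6 in vector and 23.7, 21.0 and 18.7 in circEZH2_005, and the groups overlapped.

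Of the 7 mitochondrial complex I genes, all were under 0, from -0.17 (mt-Nd3, SE 0.10, edgeR adjusted p = 0.360) and -0.12 (mt-Nd1) through -0.06 (mt-Nd4l), -0.05 (mt-Nd2), -0.03 (mt-Nd6) and -0.02 (mt-Nd5) to 0.00 (mt-Nd4). mt-Cytb, the only mitochondrial subunit of complex III, was at -0.04, mt-Atp6 and mt-Atp8 of complex V at -0.06 each, and mt-Co2 of complex IV at 0.05. mt-Nd6 lies on the strand opposite to the other 12 genes and overlaps mt-Nd5 at its 3′ end, where reads cannot be told apart without strand. Without circEZH2_005 1, mt-Nd4, mt-Nd5 and mt-Nd6 turned to 0.02, 0.03 and 0.05.

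**Figure D4:**
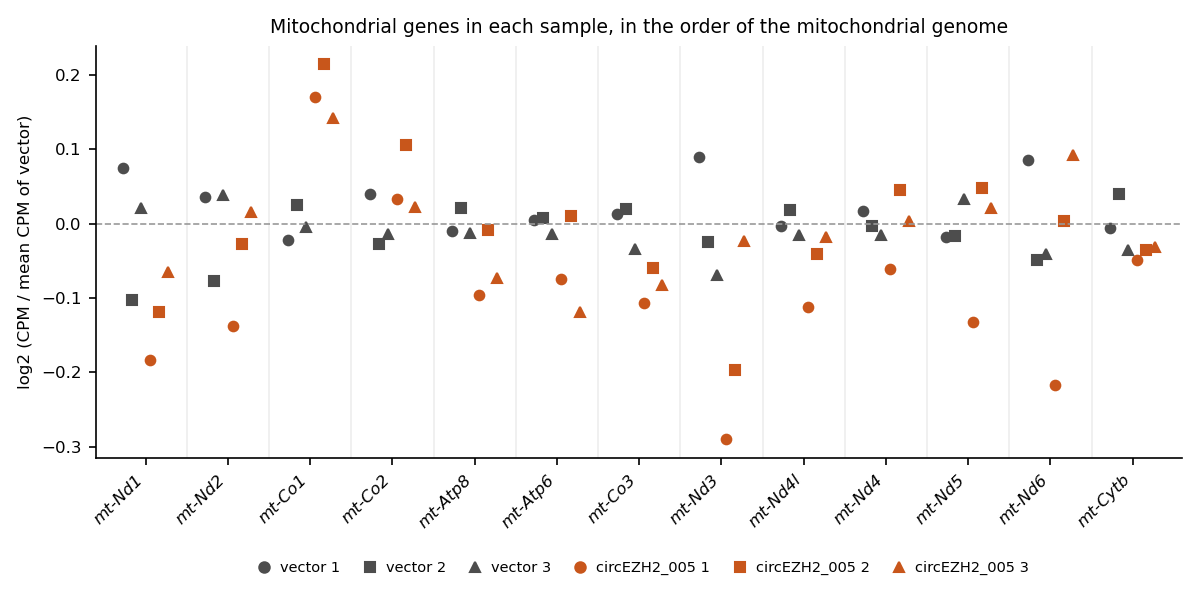
CPM of the 13 mitochondrial genes in each sample relative to the vector mean (log2 axis), in genome order, vector in grey and circEZH2_005 in orange, with replicates by marker shape. The orange points of mt-Co1 lie above all grey points, those of mt-Co3 and mt-Nd4l lie below, and in 10 of the 13 genes circEZH2_005 1 (orange circle) is the lowest sample.

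Reads of some mitochondrial genes also match nuclear copies, listed as pseudogenes. Of these, 7 near-identical copies, all on chromosome 1, held 2.06% to 2.22% of counts. Gm28661, identical to mt-Co2 over 681 bases, had 98.4% to 98.8% of the count of mt-Co2 in the 6 samples, while Gm13341, which aligns to mt-Co2 with 16 mismatches (97.62% identity), had 0.2% to 0.3%. A stretch around a difference in the middle of the list, holding 6 of the 16, is shown because it tells these copies apart. It covers mt-Co2 bases 447 to 507, counted from 1 at the start of the gene (chrMT:7459-7519, mm10). Capitals mark T462C, C474T, C477T, A492C, G493A and C501A, with the base of mt-Co2 first.
mt-Co2: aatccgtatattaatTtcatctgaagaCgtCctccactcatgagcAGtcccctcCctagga
Gm28661: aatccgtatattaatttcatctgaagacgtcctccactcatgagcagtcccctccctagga
Gm13341: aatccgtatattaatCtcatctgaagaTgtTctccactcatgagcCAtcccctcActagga

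The copies of mt-Co3 (Gm28437), mt-Nd4l (Gm10222), mt-Nd3 (Gm28438) and mt-Atp6 (Gm10925) likewise held 99.1% to 106.8% of the count of their mitochondrial gene. How such reads were assigned is not stated, and a count in either row cannot be traced to one genome. Gm29216, which covers 31.3% of mt-Co1, held 9.0% to 9.7% of its count in vector and 9.9% to 10.1% in circEZH2_005, with a log2 fold change of 0.27 (SE 0.08, edgeR adjusted p = 0.105). Among 90 nuclear members with a value, 41 shared 0 stretches of 50 bases with other genes and 15 shared over 25% of them, up to 84.8% for Atp5l.

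Together the mitochondrial genes took 7.76%, 7.88% and 7.75% of all counts in vector and 7.995%, 7.48% and 7.53% in circEZH2_005. The 91 nuclear genes took 1.84%, 1.88% and 1.73% against 1.65%, 1.67% and 1.67%. By raw counts the nuclear share was therefore lower in every circEZH2_005 sample, while the mitochondrial share overlapped. Both statements depend on the scaling: of TMM-scaled totals the nuclear genes made up 1.82%, 1.82% and 1.70% against 1.59%, 1.80% and 1.74%, which overlap, and the mitochondrial genes 7.66%, 7.62% and 7.59% against 7.67%, 8.03% and 7.82%, which do not. The ratio of mitochondrial to nuclear counts, free of that choice, was 4.21, 4.200 and 4.47 against 4.83, 4.47 and 4.503, with ranges that touched. Counting error was small beside these differences, the 95% Wilson interval of the mitochondrial share of vector 1 being 7.75% to 7.76%, and it covers counting error only. In the TMM-scaled mitochondrial share the largest part was mt-Co1, with a mean of 27360 CPM in vector and 30900 CPM in circEZH2_005. Of the 13 genes, 11 had a log2 fold change under 0, so the higher scaled share does not describe most of them.

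**Figure D5:**
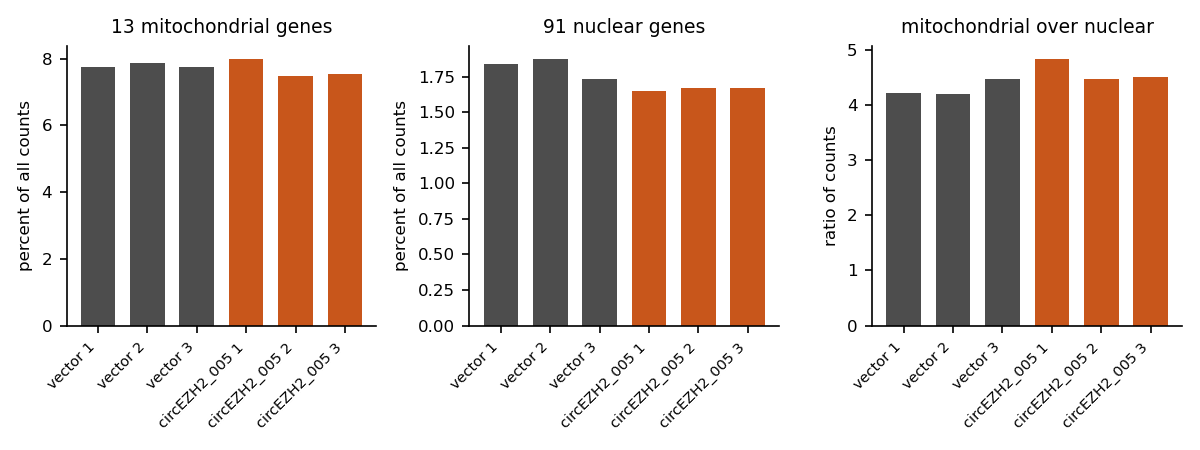
Percent of all counts taken by the 13 mitochondrial genes (left) and the 91 nuclear genes (middle) and the ratio of both (right) in each sample, bars from 0, vector in grey and circEZH2_005 in orange. The nuclear share is 1.73% to 1.88% in vector and 1.65% to 1.67% in circEZH2_005, before scaling.

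The genes whose log2 CPM over the 6 samples was most like the mean of the 13 mitochondrial genes were Slc35f5, Maob and Phf21a (Pearson r = 0.999, 0.997 and 0.995). With 6 libraries that share depth and scaling, 86 of 18244 genes had an r over 0.95, and the likeness is a description.

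Genes that serve these complexes from outside the rule were counted from lists drawn up by function. Of 44 further assembly factors and electron carriers tested, 0 were higher and 0 lower (median -0.13, 35 under 0), and the extremes were Cox17, a copper chaperone of complex IV, at 0.35 (edgeR adjusted p = 0.202) and Sco2, which delivers copper to mt-Co2, at -1.20 (edgeR adjusted p = 0.0614). Of 18 genes of mitochondrial DNA copying and transcription, 0 passed (median -0.24, 15 under 0), and the extremes were Primpol, a primase-polymerase, at 0.27 (edgeR adjusted p = 0.136) and Tefm, a transcription elongation factor, at -0.43 (0.254). Of 19 genes that process mitochondrial RNA, 0 passed (median -0.14, 17 under 0), with Ptcd1 highest at 0.22 (edgeR adjusted p = 0.286) and Prorp, a subunit of mitochondrial RNase P, lowest at -0.42 (0.0854). Of 78 genes of the mitochondrial ribosome, which translates the 13 mitochondrial messages, 1 was lower and 0 higher (median -0.17, 69 under 0). That gene was Mrpl42, at 77.5, 77.8 and 72.4 CPM in vector and 49.1, 52.2 and 58.1 CPM in circEZH2_005 (log2 fold change -0.52, SE 0.09, edgeR adjusted p = 0.0301).

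Of 18 genes of the TCA cycle, which feeds NADH and succinate to the chain, 0 passed (median -0.11); citrate synthase Cs was at 0.34 (edgeR adjusted p = 0.135) and fumarase Fh1 at -0.27 (0.0978). Of 10 transcriptional regulators of the nuclear genes, 1 was higher and 0 lower (median 0.08). It was Perm1, a muscle regulator downstream of PGC-1, at 3.85, 3.63 and 2.78 CPM against 6.51, 11.2 and 6.70 CPM (log2 fold change 1.25, SE 0.26, edgeR adjusted p = 0.0468). Of 12 HIF targets linked to respiration and oxygen, 1 was higher and 0 lower (median 0.10). Ankrd37 measured 1.71, 2.77 and 2.21 CPM against 6.01, 5.43 and 7.53 CPM (log2 fold change 1.502, SE 0.24, edgeR adjusted p = 0.0254), while Car9, a further target of HIF, was lowest at -0.35 (edgeR adjusted p = 0.0908).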

How the data were processed

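RNA of the crypt cells was sequenced after oligo(dT) selection, which favours polyadenylated RNA. The submitters' processing notes name cutadapt 1.9, HISAT2 2.0.4, StringTie 1.3.4d, DESeq2 and the build mm10; the counting program, its strand setting and its handling of reads with several positions are not given in the sources used here. The authors deposited raw read counts per gene and, beside them, FPKM values, with 0 columns of sample values unused. Columns named NC were taken as vector, the only control group of the labels. Members and lists were chosen with earlier results of these data known.

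Counts were filtered with filterByExpr, scaled with TMM and compared by the edgeR 4.0.16 quasi-likelihood test (R 4.3.3) on 3 against 3 samples, without covariates, with Benjamini-Hochberg adjustment over all genes tested. SE is the log2 fold change over the square root of F. Totals of 71506487 to 79919893 counts put the limit of 3 counts at 0.0375 to 0.0420 CPM. Alternatives were DESeq2 1.42.0, limma 3.58.1 on log2(FPKM + 1) and log2(FPKM + 0.1) with a minimum mean of 0.5 FPKM, other scalings, no filter, other placings of genes in complexes, a replicate block and each sample left out. The fit was tested on simulated data. Named were the mitochondrial genes, members past the threshold, the highest and lowest of each class and of each list with no gene past the threshold (in the other lists, the genes past it), isoform pairs and the 3 genes most like the mitochondrial mean; others named (Ndufb11, Ndufaf1, Ndufaf5, Sdha, Uqcrb, Atp5a1, Atp5b, Car9, Tagln, Des) were chosen after their values were seen. Transcripts came from GENCODE M21 (GRCm38). Values of 1 member are not reported here.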

Additional observations from a re-analysis of the deposited data

How the results depend on the processing

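Calls were few and depended on the tool and the samples. Members called higher numbered 2 in DESeq2 and 0 without the count filter, and members called lower 3 in DESeq2, 1 in limma on log2(FPKM + 0.1) and 2 on log2(FPKM + 1). Members lower at an unadjusted p under 0.05 numbered 37 in either limma fit. For the alternative fits, block and left-out samples included, no share of all genes at that unadjusted threshold is given. Such counts therefore cannot be set against all genes. All genes called higher (493 in the reported fit) were 1588 in DESeq2, 323 in limma with 0.1 and 132 without the filter, and those called lower (181) were 701, 319 and 37, with 364 in limma with 1. In the limma fits on FPKM, medians were -0.14 and -0.14 (mitochondrial genes, pseudocounts 0.1 and 1), -0.18 and -0.17 (nuclear subunits), -0.21 and -0.21 (complex I), -0.13 and -0.13 (complex II), -0.21 and -0.21 (complex III), -0.13 and -0.13 (complex IV), -0.15 and -0.14 (complex V) and -0.36 and -0.30 (assembly factors), and 94 members lay under 0 in both (81 in the reported fit). The signs of Atp5b (-0.0557 and -0.0556, pseudocounts 0.1 and 1), Cox4i1 (-0.0539 and -0.0537), Cox6a1 (-0.0478 and -0.0476), Sdhc (-0.0580 and -0.0573), Uqcrfs1 (-0.0552 and -0.0550) and mt-Co2 (-0.0335 in both) turned there. The limma fits took FPKM as deposited, without TMM factors. Those factors were 1.013, 1.034 and 1.02 in vector and 1.043, 0.9314 and 0.9633 in circEZH2_005. No median and no share under 0 over all genes is given for these fits, so the lower values of members cannot be set against all genes. The cause was not tested. With TMM-scaled totals, an alternative chosen after seeing the data, the share of the mitochondrial genes differed by 0.213 percentage points (by -0.127 with raw totals) and that of the nuclear genes by -0.071 (-0.150).

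Same-numbered samples did not deviate together (correlations of -0.136, -0.0234 and 0.0363), so they shared only a number; with the replicate block, 0 members were higher (Cox7a1 adjusted p = 0.0557), 4 members were lower at an unadjusted p under 0.05, and 241 genes were higher and 36 lower. Leaving out each sample in turn gave 0 to 1 members higher, 4 to 14 lower at an unadjusted p under 0.05, and 26 to 1098 genes higher and 2 to 334 lower. It moved log2 fold changes from -0.0779 to 0.0327 for Atp5a1, -0.0315 to 0.0709 for Atp5b, -0.0093 to 0.12 for Cox4i1, -0.0266 to 0.14 for Cox6a1, -0.10 to 0.0340 for Cox6b1, -0.0850 to 0.0768 for Cox8a, -0.0523 to 0.0379 for Sdha, -0.0016 to 0.0833 for Sdhc, -0.0359 to 0.0719 for Uqcrfs1, -0.0286 to 0.0231 for mt-Nd4, -0.0544 to 0.0333 for mt-Nd5 and -0.10 to 0.0472 for mt-Nd6. At 3 samples a group, the interval of a single member excluded only changes larger than its half-width, a median of 0.22 on the log2 scale, and Cox8b, at 0 to 13 counts, could not be resolved.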

Other observations

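The mitochondrial genome also encodes transfer and ribosomal RNAs, which oligo(dT) selection catches poorly. Of its 22 tRNA genes, 21 had a log2 fold change under 0 (median -0.52), and 0 passed the test (lowest edgeR adjusted p = 0.0888). In 7 of them all circEZH2_005 samples lay below all vector samples, which was the case for 14.2% of all genes. The tRNA gene above 0 was mt-Ts1 (0.22), whose circEZH2_005 samples all lay above the vector samples, as in 16.4% of all genes. It lies on the strand opposite to mt-Co1 (0.18) and overlaps the end of that gene. Whether reads were counted by strand is not stated, so its value cannot be told apart from that of mt-Co1. mt-Rnr1, the small ribosomal RNA, measured 217.4, 394.6 and 212.3 CPM in vector and 702.2, 649.4 and 1459 CPM in circEZH2_005, a log2 fold change of 1.77 (edgeR adjusted p = 0.0477). mt-Rnr2, the large one, measured 1489, 1033 and 1559 CPM against 1063, 1391 and 2815 CPM and overlapped (log2 fold change 0.37, edgeR adjusted p = 0.578). The value of circEZH2_005 3 was the highest for both ribosomal RNAs.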
